A study of Mus musculus with 23 samples.

Results

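The 9 genes Plat, Plau, Plaur, Serpine2, Thbd, Pth1r, Srgn, Snai1 and Vim, which are markers of parietal endoderm or parts of the plasminogen activator system, were followed in F9 cells given retinoic acid (RA). They were found by symbol among 36814 genes, and each matched 1 gene. F9 is a mouse embryonal carcinoma cell line, the tumour counterpart of early pluripotent cells, and it turns into extraembryonic endoderm when RA is given. The cells were 1 established line, and no gene was altered in any group. The 14 mRNA libraries comprised 4 from cells at 0 h, 2 each after 6, 12, 24 and 48 h of all-trans RA at 1e-07 M, and 1 each after 24 and 48 h of 0.001% dimethyl sulfoxide (DMSO), the solvent of RA. All cells had been plated on gelatine. The labels do not say whether libraries of a group came from separate cultures, so the p-values measure only the spread between these libraries. Levels are given in CPM, the reads of a gene per mega (M) reads given to any gene in that library.

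The parietal endoderm is the extraembryonic layer that lays down Reichert's membrane, a thick basement membrane around the mouse embryo. Its cells leave an epithelium, take on a mesenchymal form, and secrete laminin and type IV collagen together with tissue-type plasminogen activator. Plasminogen activators cut plasminogen to plasmin, which degrades matrix, and they are held in check by protease inhibitors of the serpin family. Parathyroid hormone-related protein, acting through its receptor and cyclic AMP, is a known signal for the formation of parietal endoderm from primitive endoderm. Release of plasminogen activator by RA-treated F9 cells is a classical readout of their differentiation to endoderm.

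The libraries held 7.079 to 10.95 M (mega) gene counts each, and 16965 to 19671 genes had at least 1 count. They fell into 2 library sets by the share of reads assigned to no feature, 57.3% to 59.4% in set 1 and 52.5% to 53.8% in set 2. Set 1 held replicate 1 of 0 h and of each RA time and both DMSO libraries, and set 2 held the rest, so each RA time had 1 library in each set. Of the 16155 genes tested, 42.1% differed between the sets in a fit with a term for the set, and 3 of the 9 genes were among them. Over all groups in that fit, Serpine2 was higher in set 2 by 1.66 ± 0.22 (SE) on the log2 scale, whereas Snai1 and Pth1r were lower there, with log2 differences of -1.12 ± 0.32 and -0.78 ± 0.24 (edgeR adjusted p = 6.43e-05, 0.0151 and 0.0175). The lower levels in set 2 were not seen at 0 h for Snai1, with 2.97 CPM in set 1 and a mean of 4.59 in set 2. Pth1r had 1.70 and 1.59 CPM there.

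The identity of the cells was checked by marker genes, with 17.5% of all genes tested called higher and 12% called lower at 48 h of RA against 0 h. All 8 parietal endoderm matrix genes tested, among them the laminin chain gene Lama1, Col4a1 and Sparc, rose by 48 h of RA, and their summed level went from 979–1582 CPM at 0 h to 7083 and 10921 CPM. All 7 primitive endoderm genes tested rose as well, with summed levels of 55.3–108 CPM at 0 h and 1341 and 1518 CPM at 48 h. The 8 embryonal carcinoma genes fell, from 4383–5395 CPM to 1209 and 2103 CPM. None of these 8 was at 0 at 48 h, and in bulk RNA fewer cells of a type and less RNA per cell cannot be told apart. Visceral endoderm genes also rose, 6 of 7 tested, to 141 and 154 CPM in sum from 2.37–8.54 CPM. None of the visceral list was at 0 in both 48 h libraries. The part of visceral endoderm transcripts in the results below was not tested.

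**Figure D1:**
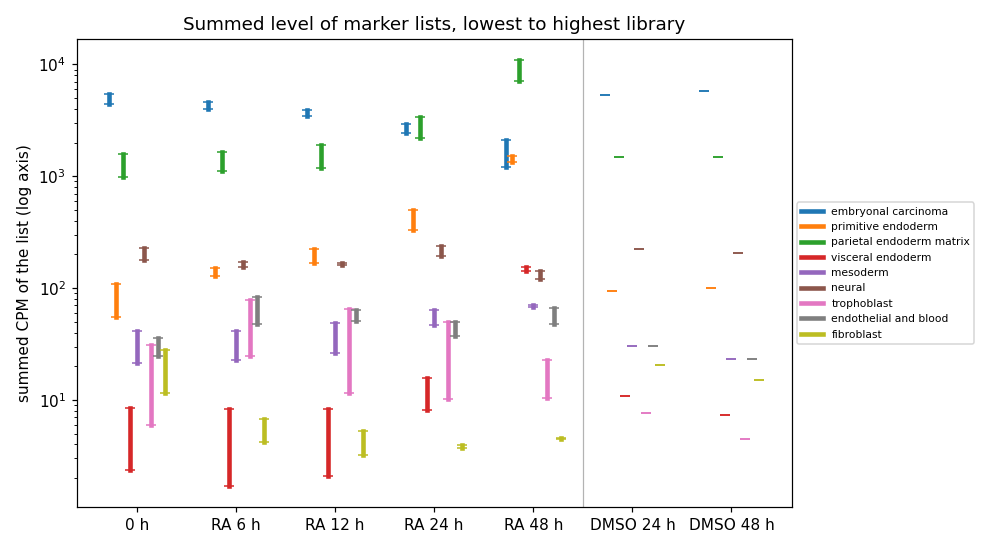
Summed CPM of each marker list on a log axis, by group, drawn from the lowest to the highest library of the group. The parietal endoderm matrix list reached 7083 and 10921 CPM after 48 h of RA and stayed at 1483 CPM in both DMSO libraries.

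Promoter sequences, the 250 bases before the RefSeq transcription start in build GRCm38.p6, were found for 6 of the 9 genes. Plat, Plau and Thbd had no entry. The windows were searched on both strands for 5 short motifs, with the share of all 32851 promoters that hold each given in parentheses. These were AGGTCA, the hexamer that nuclear receptors such as the RA receptors bind in pairs (14%), the GATA factor site AGATAA or TGATAA (16.6%), the GC box GGGCGG (32.7%), TGACG, the 5′ part of a cyclic AMP response element (17.8%), and the TATA box TATAAA (12.4%). None of the windows of the 6 genes held AGGTCA or either GATA site. A match or its absence describes these letters only. The windows of Srgn, Pth1r and Vim, whose levels were among the most alike, and of Serpine2, which moved apart from them, are shown 5′ to 3′ with matches in capitals.
Srgn start 1, chr10:62527446-62527695, minus strand: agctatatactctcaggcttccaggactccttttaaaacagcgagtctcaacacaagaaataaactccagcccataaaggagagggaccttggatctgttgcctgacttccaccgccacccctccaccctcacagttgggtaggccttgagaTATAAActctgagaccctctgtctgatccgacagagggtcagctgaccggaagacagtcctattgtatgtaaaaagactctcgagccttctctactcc
Srgn start 2, chr10:62507758-62508007, minus strand: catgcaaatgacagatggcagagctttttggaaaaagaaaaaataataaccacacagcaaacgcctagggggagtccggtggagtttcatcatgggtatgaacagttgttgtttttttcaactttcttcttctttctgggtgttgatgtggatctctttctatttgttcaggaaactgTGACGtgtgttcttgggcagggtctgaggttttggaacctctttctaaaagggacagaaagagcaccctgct
Pth1r start 1, chr9:110747146-110747395, minus strand: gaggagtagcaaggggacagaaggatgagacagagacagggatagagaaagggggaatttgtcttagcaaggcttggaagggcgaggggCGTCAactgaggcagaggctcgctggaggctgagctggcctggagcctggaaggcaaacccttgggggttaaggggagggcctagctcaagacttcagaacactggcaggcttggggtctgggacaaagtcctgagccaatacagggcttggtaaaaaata
Vim, chr2:13574061-13574310, plus strand: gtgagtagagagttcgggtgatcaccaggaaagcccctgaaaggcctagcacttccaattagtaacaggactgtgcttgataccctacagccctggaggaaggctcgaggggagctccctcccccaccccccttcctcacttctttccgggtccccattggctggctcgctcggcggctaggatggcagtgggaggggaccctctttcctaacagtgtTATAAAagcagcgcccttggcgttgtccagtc
Serpine2, chr1:79858666-79858915, minus strand: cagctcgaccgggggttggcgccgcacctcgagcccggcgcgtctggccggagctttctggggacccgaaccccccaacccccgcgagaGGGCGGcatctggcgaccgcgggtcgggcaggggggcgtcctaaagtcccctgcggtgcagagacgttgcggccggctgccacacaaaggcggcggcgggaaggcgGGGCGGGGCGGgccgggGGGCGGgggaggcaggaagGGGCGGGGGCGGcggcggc
The first Srgn start had a TATAAA beginning 98 bases before it and the second a TGACG beginning 72 bases before it. The first of 3 Pth1r starts had 1 TGACG, on the minus strand of the gene and so written CGTCA, at 161 bases, and the Vim window had a TATAAA at 32 bases. The Serpine2 window, with 78.8% G and C, held 6 GGGCGG matches, some of which share bases. Of the windows not shown, those of Pth1r starts 2 and 3 held 1 and 4 GGGCGG matches, that of Plaur held 3, and that of Snai1 held none of the 5 motifs.

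Plat and Plau encode the tissue-type and the urokinase-type plasminogen activator. Plat (ENSMUSG00000031538, chr8:22757722-22782848) stood at 0.141, 0.285, 0.911 and 0.485 CPM in the 4 libraries at 0 h. After RA it was at 0.835 and 0.659 CPM at 6 h, 1.63 and 1.80 at 12 h, 30.3 and 17.1 at 24 h, and 138 and 133 at 48 h. From 12 h on both RA libraries of each time lay above every 0 h library, and the means of 23.7 ± 9.38 CPM at 24 h and 135 ± 3.24 at 48 h (SD, n = 2) were far above that at 0 h, 0.455 ± 0.335 (SD, n = 4). Plat rose by 5.52 ± 0.43 (log2 fold change ± SE) at 24 h and by 7.98 ± 0.44 at 48 h (edgeR adjusted p = 4.16e-05 and 5.34e-06). At 12 h its log2 fold change of 1.82 ± 0.49 did not pass the test (edgeR adjusted p = 0.0883), but it passed with a term for the library set (1.73 ± 0.49, adjusted p = 0.0341), with the replicate number as a block (2.82 ± 0.61, adjusted p = 0.0111) and in DESeq2 (1.84 ± 0.56, adjusted p = 0.0210).

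Plau (ENSMUSG00000021822, chr14:20836662-20843388) followed another course. It stood at 0, 0.190, 1.11 and 0.485 CPM at 0 h, 0.477 and 0.188 at 6 h, 1.86 and 1.70 at 12 h, 7.42 and 8.58 at 24 h, and 1.77 and 5.85 at 48 h. Its highest libraries were those of 24 h, and from 12 h on no RA library overlapped with those of 0 h. Plau rose by 3.96 ± 0.81 at 24 h and by 2.86 ± 0.81 at 48 h on the log2 scale (edgeR adjusted p = 0.0111 and 0.0233). The call at 48 h was lost without 0 h replicate 2 (adjusted p = 0.0595), 0 h replicate 4 (0.0549) or RA 48 h replicate 2 (1.83, adjusted p = 0.245 in edgeR). With the replicate block, whose 0 h libraries are only replicates 1 and 2, its rises were larger, 5.97 ± 0.82 and 4.82 ± 0.87, as were those of Plat, 6.46 ± 0.41 and 8.99 ± 0.37. The difference of Plau between 48 and 24 h, -1.10 ± 0.90, did not pass the test (edgeR adjusted p = 0.666). At 12 h a log2 fold change of 1.90 ± 0.84 (adjusted p = 0.333) passed only with the replicate block (3.90 ± 0.95, edgeR adjusted p = 0.0206) and in DESeq2 with the library set term (2.17 ± 0.82, adjusted p = 0.0489).

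**Figure D2:**
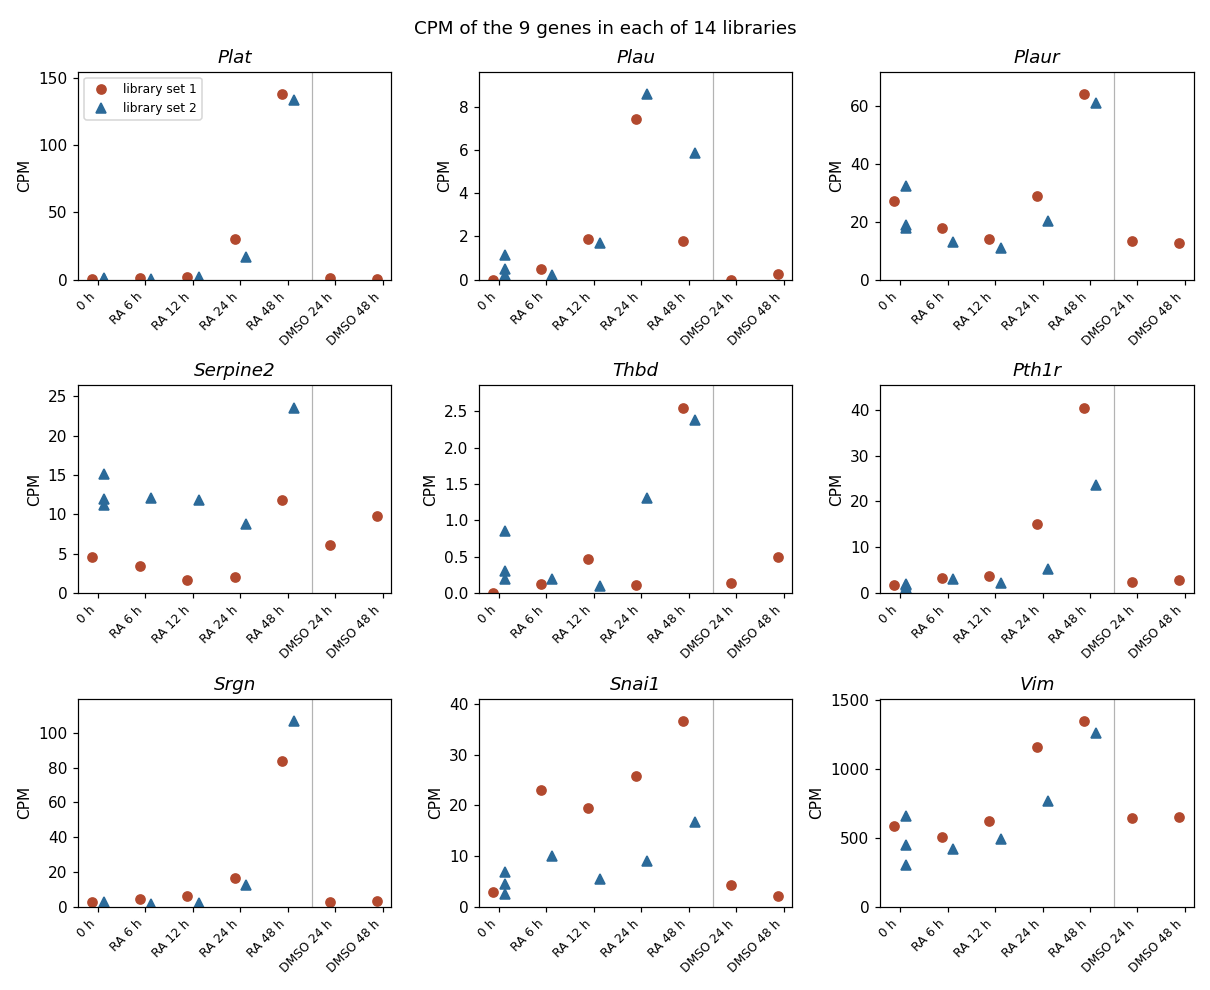
CPM of each of the 9 genes in every library (1 panel per gene, each with its own axis), by RA time and DMSO time, with the library set shown by the marker. Plat and Srgn climbed to 48 h, Plau was highest at 24 h, and Serpine2 split by library set at each RA time.

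Plaur (ENSMUSG00000046223, chr7:24460937-24475970) encodes the urokinase receptor, which holds urokinase at the cell surface. Its levels were 27.3, 18.9, 32.3 and 17.8 CPM at 0 h, 17.8 and 12.9 at 6 h, 14.1 and 10.8 at 12 h, 29.0 and 20.3 at 24 h, and 64.2 and 61.0 at 48 h. The libraries of 12 h lay below every 0 h library, those of 24 h within their range and those of 48 h above it. Plaur rose by 1.22 ± 0.30 on the log2 scale at 48 h (edgeR adjusted p = 0.0120), a call lost without RA 48 h replicate 1 (1.11, adjusted p = 0.0806). Its log2 fold change at 12 h, -0.97 ± 0.33, did not pass (edgeR adjusted p = 0.182), whereas the library set term gave a fall of -1.08 ± 0.25 (adjusted p = 0.0136) and the replicate block one of -0.91 ± 0.19 (adjusted p = 0.00995). The DMSO libraries of 24 and 48 h also lay below every 0 h library, at 13.4 and 12.7 CPM. With the set term Plaur had -1.14 ± 0.28 in DMSO (mean of 24 and 48 h) against 0 h (edgeR adjusted p = 0.564). There was no DMSO library at 12 h, so the part of RA in the fall was not tested.

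Serpine2 (ENSMUSG00000026249, chr1:79794317-79858665) encodes protease nexin-1, a serpin that inhibits thrombin, urokinase and plasmin. In set 1 it stood at 4.52 CPM at 0 h and then at 3.46, 1.63, 2.07 and 11.9 CPM after 6, 12, 24 and 48 h of RA. In set 2 the 0 h libraries had 12.0, 11.1 and 15.1 CPM, and the RA libraries 12.1, 11.8, 8.77 and 23.6 CPM. Each set had its highest level at 48 h, but the libraries of 48 h overlapped with those of 0 h across sets. The change at 48 h of 0.58 ± 0.75 on the log2 scale did not pass the test (edgeR adjusted p = 0.610), and Serpine2 was the gene of the 9 with the smallest fold change there. With the library set term Serpine2 rose by 1.06 ± 0.29 (adjusted p = 0.0083), and with the replicate block by 1.08 ± 0.35 (edgeR adjusted p = 0.0221). Within the sets the log2 ratio of 48 h to 0 h was 1.39 in set 1 and 0.89 in set 2. At 24 h the ratio was -1.12 in set 1 and -0.54 in set 2, and the fitted change of -1.10 ± 0.82 did not pass (edgeR adjusted p = 0.438). Both DMSO libraries, of set 1, lay above the 0 h library of that set, at 6.16 and 9.78 CPM.

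Thbd (ENSMUSG00000074743, chr2:148404471-148408188) encodes thrombomodulin, the thrombin receptor that turns thrombin toward protein C and that parietal endoderm is known to carry. It was near the limit of detection for most of the course, with 0, 9, 3 and 2 reads at 0 h, 1 and 2 at 6 h, 4 and 1 at 12 h, 1 and 14 at 24 h, and 23 and 26 at 48 h. The libraries of 24 h stood apart from each other, and those of 48 h, at 2.55 and 2.37 CPM, lay above all at 0 h, which had 0 to 0.854 CPM. The log2 fold change at 48 h was 2.62 ± 0.95 and missed the threshold (edgeR adjusted p = 0.0618), also with the replicate block (2.38 ± 0.95, adjusted p = 0.0571). It passed with the library set term (2.86 ± 0.82, edgeR adjusted p = 0.0102), and also without 0 h replicate 2, RA 24 h replicate 1 or RA 24 h replicate 2 (adjusted p = 0.0371, 0.0366 and 0.0367). At 6 h only 3 reads were counted in all, a ratio to 0 h of 0.426 with a 95% interval from 0.0786 to 1.53 that covers counting error only.

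Pth1r (ENSMUSG00000032492, chr9:110722085-110747145) encodes the receptor of parathyroid hormone and of parathyroid hormone-related protein. It stood at 1.70, 1.71, 1.01 and 2.04 CPM at 0 h, 3.22 and 3.11 at 6 h, 3.73 and 2.08 at 12 h, 15.1 and 5.22 at 24 h, and 40.4 and 23.6 at 48 h. All 8 RA libraries were above every 0 h library, and at 24 and 48 h the set 1 library was the higher. At 6 and 12 h, 9.32% and 13.6% of all genes had both RA libraries above every 0 h library. The Pth1r changes then, 1.00 ± 0.48 and 0.83 ± 0.49 on the log2 scale, were not called (edgeR adjusted p = 0.568 and 0.496). Both DMSO libraries, at 2.36 and 2.76 CPM, also lay above every 0 h library. Pth1r rose by 2.55 ± 0.46 at 24 h and by 4.15 ± 0.46 at 48 h on the log2 scale (edgeR adjusted p = 0.00592 and 0.000173). The call at 24 h was lost without RA 24 h replicate 1 (1.54, adjusted p = 0.0926) and in set 2 alone (1.59 ± 0.45, edgeR adjusted p = 0.0524). Its ligand gene Pthlh had 3 reads over all 14 libraries and was too low to test, and Pth had 0, which allows up to 3 reads.

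Srgn (ENSMUSG00000020077, chr10:62493833-62527445) encodes serglycin, the small proteoglycan core protein of secretory granules, first known from a rat yolk sac tumour. At 0 h it had 2.40, 0.664, 0.708 and 2.43 CPM. With RA it had 4.06 and 1.32 CPM at 6 h, 6.06 and 1.89 at 12 h, 16.7 and 12.5 at 24 h, and 83.7 and 107 at 48 h. The libraries of 6 and 12 h overlapped with those of 0 h, and those of 24 and 48 h were all higher. Srgn rose by 3.14 ± 0.62 at 24 h and by 5.80 ± 0.64 at 48 h on the log2 scale (edgeR adjusted p = 0.00911 and 0.000166), and the call at 24 h was lost without RA 24 h replicate 1 (2.87, adjusted p = 0.0617).

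Snai1 (ENSMUSG00000042821, chr2:167538195-167542814) encodes Snail, a zinc finger repressor of E-cadherin and a driver of epithelial to mesenchymal transition, and Vim (ENSMUSG00000026728, chr2:13574311-13582826) encodes vimentin, the intermediate filament protein of mesenchymal cells. Snai1 stood at 2.97, 4.46, 6.78 and 2.52 CPM at 0 h, 23.0 and 9.98 at 6 h, 19.6 and 5.39 at 12 h, 25.9 and 8.95 at 24 h, and 36.7 and 16.8 at 48 h. Its libraries of 6, 24 and 48 h lay above all of 0 h, the set 1 library was above the set 2 library at every RA time, and at 12 h the set 2 library fell within the range of 0 h. Snai1 rose by 2.52 ± 0.64 on the log2 scale at 48 h (edgeR adjusted p = 0.0139), a call lost without RA 48 h replicate 1 (1.76, adjusted p = 0.149). At 6 h its log2 fold change was already 2.01 ± 0.64, but this passed only with the replicate block (1.92 ± 0.42, edgeR adjusted p = 0.0201) and in DESeq2 with the library set term (1.48 ± 0.45, adjusted p = 0.0159), not without them (adjusted p = 0.229). At 24 h, 1.95 ± 0.64 missed the threshold (edgeR adjusted p = 0.0736), and it passed with the set term (1.41 ± 0.46, adjusted p = 0.0382) and the replicate block (1.81 ± 0.42, adjusted p = 0.00851).

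Vim was high before RA, at 585, 445, 299.5 and 654 CPM at 0 h. It had 502 and 417 CPM at 6 h, 622 and 493 at 12 h, 1155 and 762 at 24 h, and 1344 and 1259 at 48 h. The libraries of 24 and 48 h lay above all of 0 h, while those of 6 and 12 h lay among them. Vim rose by 1.24 ± 0.29 at 48 h (log2, edgeR adjusted p = 0.00953), and this call too was lost without RA 48 h replicate 1 (1.11, adjusted p = 0.0725). At 24 h the value of 0.85 ± 0.29 (adjusted p = 0.0859) passed with the library set term (0.73 ± 0.22, edgeR adjusted p = 0.0273) and the replicate block (0.76 ± 0.14, adjusted p = 0.00149).

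**Figure D3:**
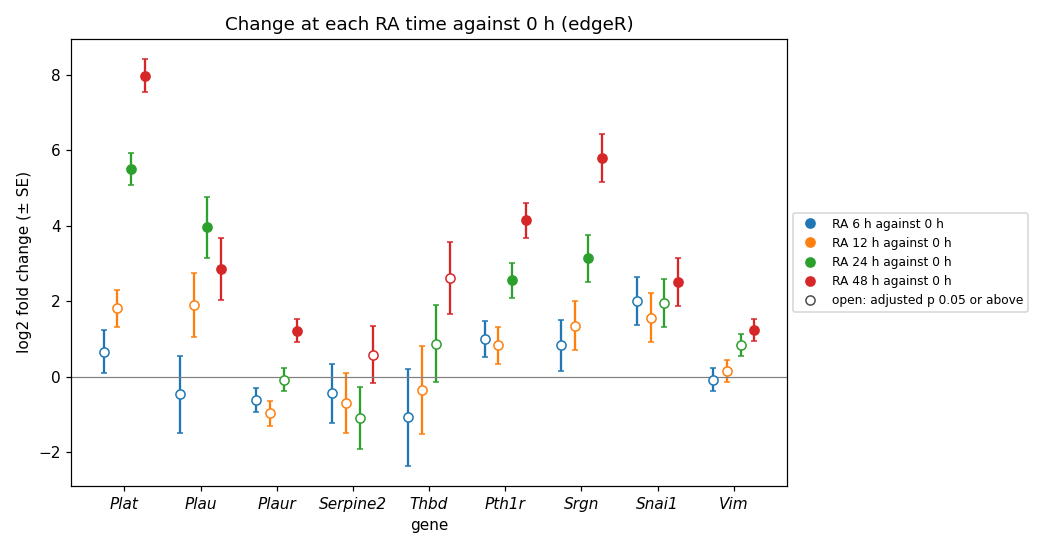
Log2 fold change (± SE) of each gene at 6, 12, 24 and 48 h of RA against 0 h from edgeR. At 24 h the calls were Plat, Plau, Pth1r and Srgn, and at 48 h Plaur, Snai1 and Vim joined them.

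Counted over the 9 genes, 0 were called at 6 h and 0 at 12 h in edgeR, where 1.66% and 2.75% of all genes tested were called. At an unadjusted p under 0.05 there was 1 of the 9 at 6 h, Snai1 (all genes: 1570 of 16155). At 12 h there were 4 of the 9, Plat, Plau, Plaur and Snai1 (all genes: 2361 of 16155). DESeq2 called 0 of the 8 with an adjusted p at 6 h (all genes: 3.6%) and 1 of 8 at 12 h (all genes: 6.45%). At 24 h 4 of the 9 rose (all genes: 8.08% higher), and at 48 h 7 of the 9 rose (all genes: 17.5% higher). This edgeR fit called none of the 9 lower at any RA time. Without RA 24 h replicate 1 the count at 24 h was 2, and without RA 48 h replicate 1 the count at 48 h was 4. All RA libraries lay above all 0 h libraries for 6 of the 9 genes at 24 h and for 8 of 9 at 48 h, where the shares of all genes were 23% and 32.2%.

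With the term for the library set, 2 of the 9 were called at 12 h, Plat higher and Plaur lower (all genes: 12.7% in either direction). At 24 h 6 of the 9 rose (15.5% higher), and at 48 h all 9 rose (25.8% higher). The log2 fold change at 48 h moved most for Snai1, from 2.52 to 2.04, and for Serpine2. Within the sets the log2 ratio of 48 h to 0 h for Snai1 was 3.63 in set 1 and 1.87 in set 2. The genes gained at 48 h were Serpine2 and Thbd. For Serpine2 the set term fit gave 0.96 ± 0.35 for DMSO (mean of 24 and 48 h) against 0 h (edgeR adjusted p = 0.593). It gave -0.22 ± 0.42 for RA against DMSO at 48 h (edgeR adjusted p = 0.745), so the Serpine2 rise was seen only against 0 h.

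**Figure D4:**
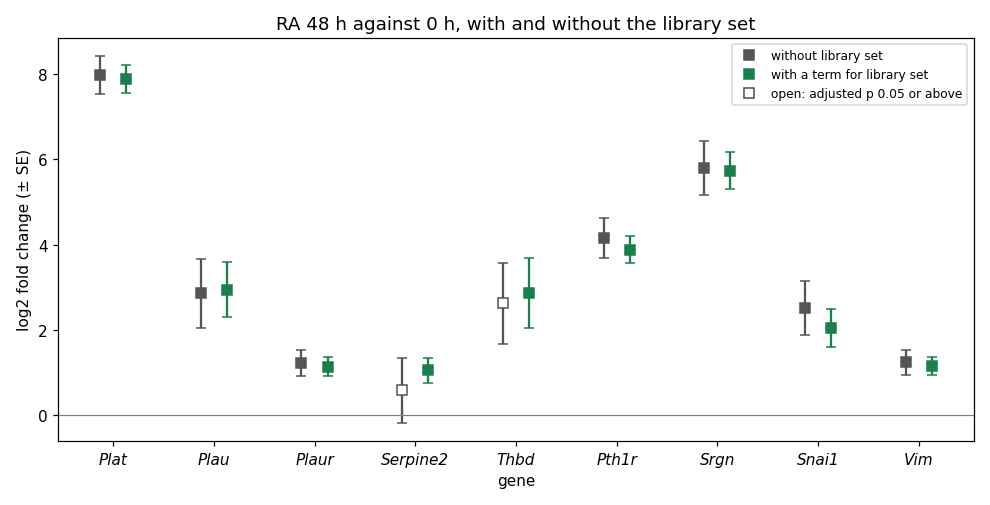
Log2 fold change (± SE) at 48 h of RA against 0 h in edgeR, without and with a term for the library set, with open symbols at an adjusted p of 0.05 or above. Serpine2 moved from 0.58 ± 0.75 to 1.06 ± 0.29, and every gene had a smaller error with the term.

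Between neighbouring times edgeR called 0 of the 9 from 6 to 12 h, where 0 of all genes were called, 0 of the 9 had an unadjusted p under 0.05 and DESeq2 called 0. From 12 to 24 h edgeR called 0 of the 9 (all genes: 0.0124%). At an unadjusted p under 0.05 there were 4 (all genes: 1710 of 16155), and DESeq2 called 1, Plat (all genes: 2.48%). The Plat difference at that step was 3.69 ± 0.49 on the log2 scale (edgeR adjusted p = 0.0514). From 24 to 48 h only Plat rose, by 2.46 ± 0.43 (edgeR adjusted p = 0.0368, all genes 0.489% higher). That call was lost in each of 10 fits that left out 1 library (adjusted p up to 0.166). With the replicate block 6 of the 9 rose at each of these later steps (all genes: 6.46% and 9.63% higher). These were Plat, Plau, Plaur, Pth1r, Srgn and Vim from 12 to 24 h, and Plat, Plaur, Serpine2, Pth1r, Srgn and Vim from 24 to 48 h.

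The DMSO libraries give the level without RA at the same culture time. At 24 and 48 h of DMSO, Plat had 1.05 and 0.627 CPM, Plau 0 and 0.251, and Plaur 13.4 and 12.7. Serpine2 had 6.16 and 9.78 CPM, Thbd 0.131 and 0.502, and Pth1r 2.36 and 2.76. For Srgn the levels were 2.49 and 3.14 CPM, for Snai1 4.33 and 2.13, and for Vim 640 and 652. Pth1r and Srgn at both times lay just above the highest 0 h library and Plaur below the lowest, while Plat overlapped with 0 h at 48 h. Snai1 in DMSO at 48 h lay below its lowest 0 h library, which had 2.52 CPM. Against 0 h, edgeR called 0 of the 9 and 0 of all genes. At an unadjusted p under 0.05 there was 1 of the 9, Plaur (-0.86 ± 0.33 on the log2 scale, edgeR adjusted p = 0.587), and there were 1274 of all 16155 genes. DESeq2 called 0 of the 9 and 6 genes in all.

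Against DMSO at 24 h, only Plat of the 9 was called, with a rise of 4.33 ± 0.71 on the log2 scale (edgeR adjusted p = 0.0169, all genes 1.29% higher). Plau had 160 reads in the RA libraries and 0 in the DMSO library, at least 20.4-fold higher against a floor of 3 reads over the group, with an edgeR adjusted p of 0.0899. Both RA libraries lay above the DMSO library for 7 of the 9 genes at 24 h and for all 9 at 48 h, shares that were 42% and 48.4% over all genes. With the set term Plat, Plau, Pth1r and Srgn rose (all genes: 5.83% higher).

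At 48 h, 4 of the 9 rose against DMSO (all genes: 4.8% higher). These were Plat by 7.56 ± 0.81, Srgn by 4.75 ± 1.10, Pth1r by 3.36 ± 0.78 and Plaur by 2.14 ± 0.49 on the log2 scale (edgeR adjusted p = 0.00141, 0.0287, 0.0288 and 0.0287). The calls of the last 3 were lost without either RA 48 h library, with adjusted p up to 0.0821, 0.0911 and 0.0752 in edgeR. Each DMSO group had 1 library, assumed to vary like the other groups. Snai1 had 3.48 ± 1.15 (adjusted p = 0.0914) and passed with the set term (3.93 ± 0.81, edgeR adjusted p = 0.00484), as did Vim (0.83 ± 0.44 and 1.03 ± 0.34, adjusted p = 0.273 and 0.0428). Plau had 80 reads against 2, a ratio of 16.0 with a 95% counting interval from 4.28 to 134. Serpine2 within set 1 had 11.9 CPM with RA and 9.78 CPM with DMSO, and its fitted difference changed sign with the set term, from 0.69 ± 1.13 to -0.22 ± 0.42 (edgeR adjusted p = 0.736 and 0.745). The change of the RA effect from 24 to 48 h was called for 0 of the 9 and 0 of all genes in edgeR. Plat alone of the 9 had an unadjusted p under 0.05 there (3.23 ± 1.00, edgeR adjusted p = 0.989), as did 680 of all 16155 genes. DESeq2 called 0 of the 9 and 16 genes in all.

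The other genes of the same pathways were counted at 24 and 48 h against 0 h, with the background for all genes at 8.08% higher and 4.26% lower at 24 h and 17.5% higher and 12% lower at 48 h. Of 15 tested genes of plasminogen activation and matrix proteolysis, 4 rose at 24 h and 7 at 48 h, and 0 fell. Their median log2 fold change at 48 h was 1.16, against 0.01 over all genes. Mmp15, a membrane-type matrix metalloproteinase, rose by 4.93 ± 0.27 and Mmp9, a gelatinase, by 4.24 ± 0.73, while the metalloproteinase inhibitors Timp2 and Timp3 rose by 4.10 ± 0.36 and 3.36 ± 0.51 (edgeR adjusted p = 5.34e-06, 0.00194, 4.69e-05 and 0.000975). The Mmp9 call was lost without RA 48 h replicate 2 (2.19, adjusted p = 0.0504).

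Plg, plasminogen itself, was singled out after its values were seen, and was at 0 to 0.141 CPM at 0 h and at 0 and 0.0913 CPM at 48 h.

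In the thrombin and protein C pathway, in which thrombomodulin acts, 4 of 7 tested genes rose at 48 h and 1 fell, with 2 and 1 at 24 h. The median log2 fold change at 48 h was 1.75. Pros1, the protein C cofactor protein S, rose by 2.96 ± 0.25, F3, tissue factor, by 2.40 ± 0.30, and Tfpi, its inhibitor, by 1.75 ± 0.48, whereas F2rl1, a protease-activated receptor, fell by 1.69 ± 0.21 on the log2 scale (edgeR adjusted p = 3.97e-05, 0.000338, 0.0191 and 0.000348). The Tfpi call was lost without 0 h replicate 3 or RA 48 h replicate 2 (adjusted p = 0.0520 and 0.154).

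Among 17 tested genes of parathyroid hormone receptor and cyclic AMP signalling, 2 rose at 24 h and 5 at 48 h, and 0 fell. Their median at 48 h was 0.74. Pde10a, a cyclic nucleotide phosphodiesterase, rose by 3.99 ± 0.49, Adcy6, an adenylyl cyclase, by 2.29 ± 0.25, Prkar2b, a regulatory subunit of protein kinase A, by 1.90 ± 0.45, and Gnas, the stimulatory G protein subunit, by 1.54 ± 0.24 (edgeR adjusted p = 0.000301, 0.000163, 0.0102 and 0.00102). The Prkar2b call was lost without RA 48 h replicate 2 (adjusted p = 0.0778).

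The list around Snail held both mesenchymal and epithelial genes. Of its 18 tested genes, 2 rose and 1 fell at 24 h, and 6 rose and 2 fell at 48 h, with a median of 0.93. N-cadherin, Cdh2, rose by 2.65 ± 0.23 and cadherin-11, Cdh11, by 3.64 ± 0.79 (edgeR adjusted p = 4.62e-05 and 0.0065). The transcription factor gene Twist2 had 1 read at 0 h and 21 at 48 h, a ratio of 39.7 with a counting interval from 6.39 to 1644, and was called in edgeR (adjusted p = 0.0105) but not in DESeq2 (0.251). Snai3, a relative of Snai1, fell by 3.72 ± 1.22 (edgeR adjusted p = 0.0426), a call lost in 9 of the fits that left out 1 library (adjusted p up to 0.221). The other genes of the list are named after their values were seen. Zeb2, a repressor of E-cadherin like Snail, rose by 1.90 ± 0.56 and Prph, the intermediate filament protein peripherin, by 2.65 ± 0.53 (edgeR adjusted p = 0.0265 and 0.00433). The epithelial genes did not move one way. Ocln, the tight junction protein occludin, rose by 2.05 ± 0.55, whereas Epcam, an epithelial adhesion molecule, fell by 1.41 ± 0.26, and Cdh1, E-cadherin itself, had -0.63 ± 0.46 and was not called (edgeR adjusted p = 0.0171, 0.00256 and 0.341). The Ocln call was lost without either RA 48 h library (adjusted p up to 0.0931), and that of Zeb2 without 0 h replicate 1 or 3 or either RA 48 h library (up to 0.178).

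All 21 genes for proteoglycan cores and glycosaminoglycan synthesis, to which serglycin belongs by type, were tested. At 24 h 3 rose and 3 fell, and at 48 h 11 rose and 1 fell, with a median of 0.94. Gpc6, a glypican, rose by 4.15 ± 0.33 and Sdc3, a syndecan, by 2.83 ± 0.33 (edgeR adjusted p = 3.45e-05 and 0.000229). Bgn, biglycan, had 2 reads at 0 h and 127 at 48 h, a ratio of 120 with a counting interval from 32.6 to 1003 (edgeR adjusted p = 0.000595). Dcn, decorin, had 1 and 30 reads, a ratio of 56.8 with an interval from 9.44 to 2317 (adjusted p = 0.0377 in edgeR, lost without any 1 of the 0 h libraries, and 0.440 in DESeq2).

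Markers of other cell types were read beside these genes, since Thbd, Plau and Vim are also known from endothelium, blood cells or fibroblasts. Of 7 endothelial and blood genes 4 were tested at 48 h, where Cdh5, VE-cadherin, singled out like the other genes here after its values were seen, rose by 4.83 ± 0.54 (edgeR adjusted p = 0.000182) from 0.873–1.98 CPM to 29.7 and 56.5 CPM, and Pecam1 fell by 1.33 ± 0.37 (adjusted p = 0.0211). Ptprc, Tyrobp and Hbb-bh1 were at 0 in both 48 h libraries, and the list summed to 24.7–35.8 CPM at 0 h and 47.6 and 66.6 CPM at 48 h. The fibroblast list fell in sum from 11.6–28.0 CPM to 4.48 and 4.54 CPM, with Postn at 0 and 1 of the 2 tested genes called in each direction. At 48 h mesoderm genes were called higher in 2 of 5 (all genes: 17.5%) and neural genes lower in 2 of 4 (all genes: 12%). The median log2 fold change was -0.52 for the mesoderm list and -0.83 for the neural list, against 0.01 over all genes. Of the 2 tested trophoblast genes 0 were called. The trophoblast genes Prl3d1 and Tpbpa were at 0 at 48 h.

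The genes whose levels followed each of the 9 most closely were ranked by Pearson's r of log2(CPM + 0.5) over the 14 libraries, which share times and library sets, so r describes likeness only. Plat was most like Gpr50 (r = 0.982) and Maged1 (0.978). Srgn was most like Sox6 (0.989) and then the type IV collagen genes Col4a2 (0.986) and Col4a1 (0.984). The genes nearest to Pth1r were Rcn3 (0.984), Glt8d1 (0.975) and Mfge8 (0.972), and those nearest to Vim were P2rx3 (0.972), Elk3 (0.971) and Tmem164 (0.968). Among those nearest to Plau were Crygc (0.919) and Msx1 (0.913), and for Plaur they were Ltbr (0.939), Stard10 (0.937) and Hyal2 (0.937). Snai1 was nearest to Gadd45b (0.936), Zfhx3 (0.917) and Sbno2 (0.916), Thbd to Gcgr (0.935), Zfp61 (0.932) and Cdh11 (0.925), and Serpine2 to Gm16233 (0.917) and Pip4p2 (0.915). With a pseudocount of 2 in place of 0.5 another gene came first for Plaur, Serpine2 and Thbd.

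Among the 9 genes themselves, Pth1r and Srgn (r = 0.955), Plat and Pth1r (0.945), Plat and Srgn (0.944) and Srgn and Vim (0.920) were most alike. Serpine2 stood apart, with r from -0.32 (Snai1) to 0.47 (Thbd) with the other genes. By mean level the RA times were in the order 6, 12, 24 and 48 h for Plat, Thbd, Srgn and Vim, whereas Plau had 24 h above 48 h, and Plaur and Serpine2 had their lowest mean at 12 and at 24 h.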

How the data were processed

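RNA of F9 cells was sequenced as single ends, of 72 or 50 bases, from TruSeq V2 libraries, per the labels' protocols, with no read length given by library. TopHat2 2.0.7, HTSeq and DESeq are named on build mm9, per the submitters' processing notes, and whether counting used strand is not given in the sources used here. The authors deposited raw, not normalized counts of reads for each Ensembl gene in a table for each library. The 5 entries for reads given to no gene held 72.5% to 76.8% of counts and were left out. The retinoid receptor regions are on mm9, and no annotation of that build was at hand, so they were not used here.

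The quasi-likelihood test of edgeR 4.0.16 (R 4.3.3) was run in 1 fit over the 14 mRNA libraries (TMM, factors 0.929 to 1.095, default low-count filter by group, robust), two-sided, with Benjamini-Hochberg adjustment over 16155 genes. All 9 genes passed the filter. Calls needed an adjusted p below 0.05. CPM are unscaled by TMM. Gene positions and promoters are from RefSeq, GRCm38.p6. The 9 genes were named in full, with, from each pathway list, up to 4 called genes of the largest change at 48 h (5 more of the Snail list were chosen once values were known), and Pthlh. A few genes that the rules name are not reported here. Genes and lists were chosen with earlier results of these data known. Alternatives were RLE normalization, DESeq2 1.42.0, other filters, a minimum log2 fold change of 1, only the groups compared, the replicate number as a block and each library left out. The library set term, set 2 alone and that term without RA 24 h or RA 48 h replicate 1 were added after seeing the data.

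Deviations of same-numbered libraries of 0 h (1 and 2) and the RA times correlated between groups (10 pairs of groups, r from 0.668 to 0.812), but the number coincides with the library set, so pairing and set cannot be told apart. On simulated data with 100 genes changed 2-fold and 100 changed 4-fold among 16155, RA 48 h against 0 h, the fit recovered 15% and 69% and called 9 unchanged genes.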

Additional observations from a re-analysis of the deposited data

How the results depend on the processing

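The counts of the 9 genes called at 24 and 48 h against 0 h stayed within 1.5 times the reported 4 and 7 under every alternative that kept all libraries, and those of RA against DMSO at 48 h and of DMSO against 0 h did as well. Leaving out 1 library moved them to 2–6 at 24 h, 4–8 at 48 h, 0–1 at 12 h, 0–1 from 12 to 24 h, 0–1 from 24 to 48 h and 1–4 against DMSO at 48 h. At 6 h against 0 h the reported 0 became 1 with the replicate block and 1 in DESeq2 with the set term. At 12 h 0 became 1 in DESeq2, 3 with the block, 2 with the set term, 3 in DESeq2 with that term, 2 with that term without RA 24 h replicate 1, and 1 without RA 48 h replicate 1. From 12 to 24 h 0 became 1 in DESeq2, 1 without a filter, 6 with the block, 2 with the set term, 4 in DESeq2 with it, 1 without RA 24 h replicate 1 and 3 without RA 48 h replicate 1. From 24 to 48 h 1 became 3 in DESeq2, 0 with only the groups compared, 6 with the block, 5 with the set term, 5 in DESeq2 with it, 2 in set 2 alone, 4 without RA 24 h replicate 1 and 3 without RA 48 h replicate 1. Against DMSO at 24 h 1 became 2 in DESeq2, 2 with only the groups compared, 4 with the set term, 6 in DESeq2 with it and 5 without RA 48 h replicate 1. In the counts by setting, those without RA 24 h or RA 48 h replicate 1 came from the set term fit without that library. The counts hold both directions. Plaur was lower wherever it was called at 12 h (-0.91 with the block, -1.08 with the set term, -1.10 in DESeq2 with it). Against DMSO at 24 h Serpine2 was called lower in DESeq2 with the set term (-1.52 ± 0.54). It was also lower with the set term without RA 48 h replicate 1 (-1.62). The cause of the changes in count was not tested. Calls over all genes moved with these settings too. DESeq2, the block and the set term took them from 268 to 535, 798 and 906 at 6 h, from 444 to 959, 1481 and 2050 at 12 h, from 1993 to 2830, 4336 and 4689 at 24 h, and from 4766 to 5239, 7075 and 7881 at 48 h. They took them from 2 to 345, 1801 and 1012 from 12 to 24 h, and from 114 to 669, 2573 and 1781 from 24 to 48 h, where only the groups compared gave 0. Against DMSO at 24 h DESeq2 and the set term took 305 to 854 and 1687.

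No called value of the 9 genes changed sign. Uncalled values of RA against 0 h or DMSO that did were Plau at 6 h with the block (1.49), Thbd at 12 h with the set term in DESeq2 (0.23) or without RA 48 h replicate 1 (0.071), and Serpine2 against DMSO at 48 h with the set term (-0.22, -0.20 in DESeq2, -0.19 without RA 24 h replicate 1, -0.86 without RA 48 h replicate 1). With the set term DMSO against 0 h also changed sign for Serpine2 (-0.42 to 0.96) and Thbd (-0.38 to 0.18), and so did the 48 minus 24 h difference of Thbd (-0.062 to 0.083). With 1 library left out the ranges that crossed 0 were, at 6 h, Plau -1.26 to 0.46, Serpine2 -1.56 to 0.16, Srgn -0.22 to 1.47 and Vim -0.27 to 0.080. At 12 h they were Serpine2 -2.68 to 0.11, Thbd -1.79 to 0.56 and Vim -0.055 to 0.34. At 24 h they were Plaur -0.41 to 0.21 and Thbd -1.62 to 1.78, and against DMSO at 24 h Serpine2 -1.68 to 0.30 and Thbd -0.34 to 2.99. Scaling totals by TMM moved the 48 h mean of Plat from 135 to 125 CPM and that of Vim from 1302 to 1197. Depth limits Thbd, Plat and Plau, which had under 10 reads in most libraries before 24 h.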
